A study of Homo sapiens with 8 samples.

Results

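The D-type and E-type cyclins, the kinases they switch on and the pocket proteins they act upon were followed in human pluripotent stem cells without a kinesin-2 motor subunit. The 10 genes were chosen by symbol: the cyclins CCND1, CCND2, CCND3, CCNE1 and CCNE2, the kinases CDK4, CDK6 and CDK2, and the pocket proteins RB1 and RBL1. All 10 were found among the 58302 genes of the count table, and all 10 passed the filter on low counts that left 14216 genes for testing. RNA was sequenced in 8 libraries of undifferentiated, untreated cells, each made from a small population lysed directly, with SMART-Seq amplification and Nextera XT. The induced pluripotent line WTC11 supplied 2 control libraries and 3 of genotype KIF3B-/-. The embryonic line WA09 supplied 2 control libraries and 1 of genotype KIF3A-/-, which has no replicate. KIF3A and KIF3B are the motor subunits that carry cargo along the primary cilium, and the controls are described as isogenic. In WTC11, guide RNA 1 stands behind control 1 and knockouts 1 and 2, and guide RNA 2 behind control 2 and knockout 3. WA09 libraries share guide RNA 1. The sources speak of several clones without tying each library to a clone or culture of its own, so p-values measure a spread between libraries that may be technical.

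Cells commit to dividing in G1. Mitogen signals raise D-type cyclins, which bind CDK4 or CDK6 and begin to phosphorylate RB1, the retinoblastoma protein that holds E2F transcription factors in check. Released E2F factors raise CCNE1 and CCNE2, whose products activate CDK2 and complete that phosphorylation, and INK4 and CIP/KIP proteins inhibit these kinases. Pluripotent stem cells are known for a short G1, and the primary cilium is built in resting or G1 cells and taken down before mitosis.

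Libraries held 2161890 to 2875163 counts. Values are given as CPM, which scales each library to the same total, and a count of 0 allows up to 3 counts or 1.04 to 1.39 CPM, for counting error alone. Summed pluripotency markers lay between 4820 and 6300 CPM with none at 0. The lists of other cell types were not all low. Fibroblast and mesenchyme markers summed to 510 to 788 CPM in the KIF3B knockouts, 566 and 604 CPM in their controls and 602 to 636 CPM in the WA09 libraries, with LUM and DCN at 0 in every library. Neuroectoderm markers summed to 108 to 151 CPM in the KIF3B knockouts, 91.1 and 94.0 CPM in their controls and 64.4 to 90.9 CPM in the WA09 libraries (SOX1 at 0), and trophectoderm and amnion markers to 19.9 to 56.4, 10.4 and 44.5, and 28.6 to 34 CPM (CDX2 and TFAP2A at 0). Mesoderm and endoderm lists reached at most 7.03 and 13.0 CPM, with HAND1 and SOX17 at 0. The part of these lists in the results below was not tested. KIF3B RNA read 49.3, 37.4 and 38.4 CPM in the KIF3B knockouts against 32.5 and 26.7 CPM, so it does not check those labels, while KIF3A RNA was 33.1 CPM in the KIF3A knockout against 68.3 and 61.8 CPM. Long transcripts stood higher in the KIF3B knockouts. The rank correlation of a library's deviation from the mean of all 8 with transcript length, taken across genes, which are not independent, was 0.184, 0.301 and 0.337 in these 3 libraries and -0.223 to -0.078 in the other 5. The members differ in length, with longest transcripts from 2043 bases (CCNE1) to 11612 bases (CDK6). Values with the trend removed are given for every member in the KIF3B comparison and for some genes elsewhere.

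The RBL1 promoter carries the E2F motifs through which this pathway is known to feed back on its own genes. The letters TTTCCCGC, TTTGGCGC, TTTCGCGC and TTTGCCGC were searched on both strands in the 250 bases before each RefSeq gene start (GRCh38.p14). A match was found in 2.79% of 35116 promoters (979). This share counts promoters, and CCND3 and CDK6 had more than 1 each. CCND1, CCND2, CCNE2 and CDK2 were not searched. Of the 6 members searched, CCND3, CCNE1, CDK4, CDK6, RB1 and RBL1, 1 held a match. It is shown because it holds both of its matches side by side, on the minus strand at chr20:37095998-37096048, with the matched letters in capitals:

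RBL1: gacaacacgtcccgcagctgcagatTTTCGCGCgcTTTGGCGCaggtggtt

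The capitals begin 26 and 16 bases before the RefSeq gene start. A match describes the sequence and is no evidence of binding.

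CDK4 was the most abundant member per kilobase of transcript and the steadiest. Levels between genes were compared as CPM per kilobase of the longest GENCODE transcript, averaged over the 8 libraries with the SD between them. CDK4 reached 89.4 ± 6.55, above 93.7% of the genes tested, CCNE1 66.2 ± 11.5, CCND2 57.9 ± 13.1 and CCND3 34.8 ± 8.17. These 4 were the upper end of the order. CCND1 followed at 22.3 ± 4.13, CDK2 at 15.6 ± 4.05 and RB1 at 9.29 ± 3.4, near the middle of all genes (51.1% were lower). RBL1 stood at 4.95 ± 2.52, CCNE2 at 3.85 ± 1.11 and CDK6 had the lowest mean, 3.09 ± 2.8, with 28.0% of genes below it. CDK6 was lowest in 6 libraries but not in KIF3B knockout 2, where its 8.75 lay above RBL1 (5.35) and CCNE2 (2.74), nor in knockout 3, where its 6.16 lay above CCNE2 (3.02). Of neighbours in this order, CDK4 and CCNE1 alone had library ranges that did not overlap (82.0 to 99.3 against 48.0 to 81.1). With the union of exons as length, CCND1 passed CCND3 (19.9 against 14.3) and CDK6 passed CCNE2 (2.93 against 2.91). The highest library exceeded the lowest 1.21-fold in CPM for CDK4, 1.63-fold for CCND1 and 1.69-fold for CCNE1, against 2.79-fold for RB1, 4.76-fold for RBL1 and 7.73-fold for CDK6.

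**Figure D1:**
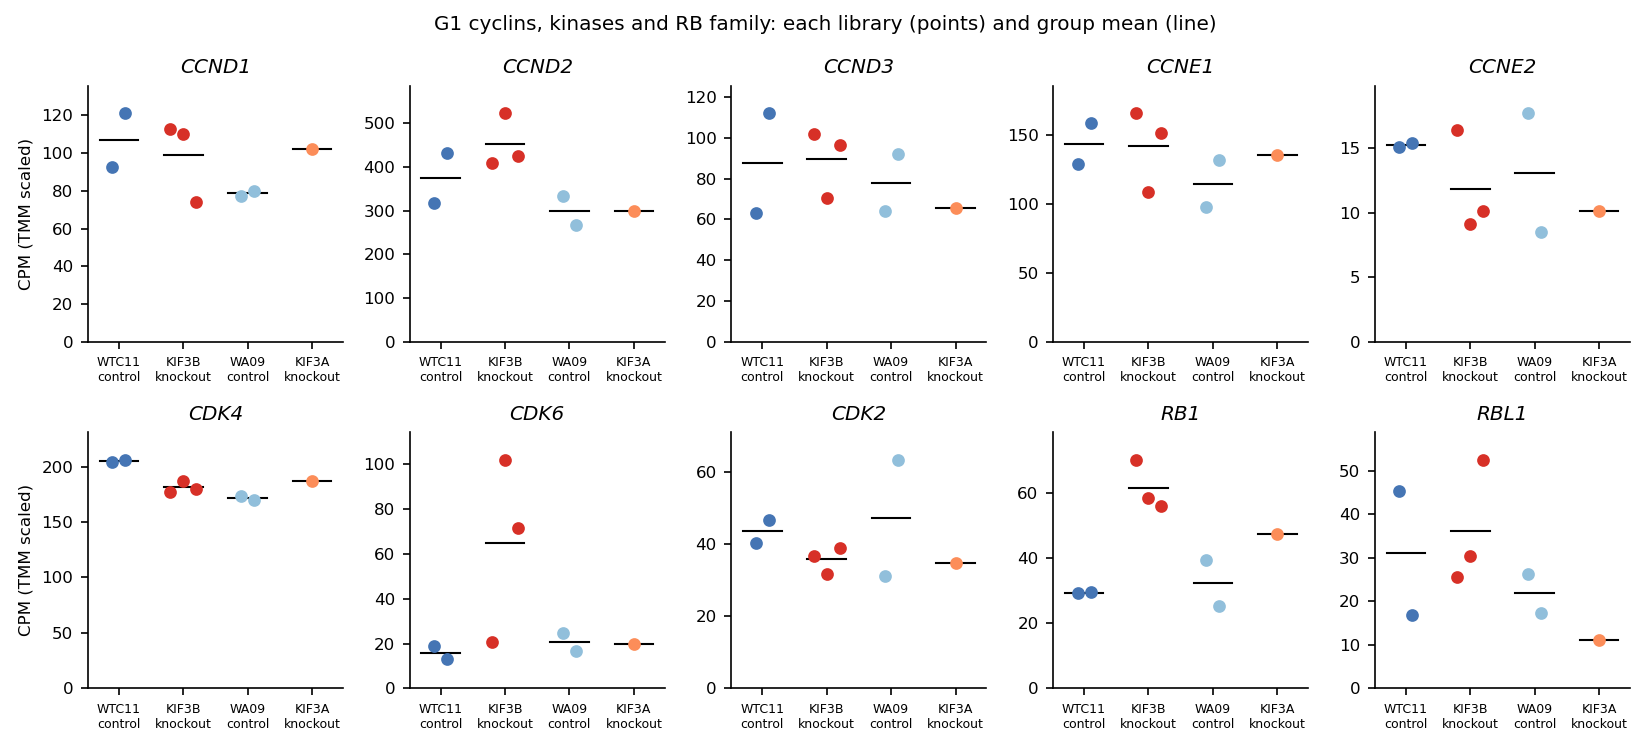
CPM of each member in each of the 8 libraries, 1 panel per gene, with points coloured by group and a line at each group mean. CDK6 stands out in KIF3B knockouts 2 and 3 (102 and 71.5 CPM), and RB1 is higher in the 3 KIF3B knockouts (56.1 to 70.3 CPM) than in the other 5 libraries.

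The loss of KIF3B was examined first, as 3 KIF3B knockout against 2 WTC11 control libraries. CDK6 and RB1 had the largest positive fold changes of the members, and no member passed the edgeR quasi-likelihood test after Benjamini-Hochberg adjustment (0 of 10, against 0.0% of all 14216 genes). At an unadjusted p under 0.05 stood 2 members, in a comparison where 16.6% of all genes did, and DESeq2 called 1 member, CDK6, and 1.47% of all genes. The median of the members was 0.01 on the log2 scale, beside 0.03 for all genes tested. The groups did not overlap for 4 members, CDK6 and RB1 higher (16.5% of genes were higher in this way) and CDK2 and CDK4 lower (18.0% of genes). In bulk libraries, fewer cells in a phase or of a type and less RNA per cell cannot be told apart.

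Among the D-type cyclins, the partners of CDK4 and CDK6, CCND2 (ENSG00000118971, GRCh38 chromosome 12, 4273772 to 4305350, plus strand) was the chief one. Its KIF3B knockouts held 408, 522 and 425 CPM and its WTC11 controls 317 and 431 CPM. Control 2 lay above knockouts 1 and 3, so the groups overlapped. This gave a log2 fold change of 0.27 ± 0.16 (SE; edgeR adjusted p = 0.434), and with the length trend removed it was 0.05. CCND1 (ENSG00000110092, chromosome 11, 69641087 to 69654474, plus strand) averaged 98.9 ± 21.6 CPM (SD, n = 3) in the knockouts and 107 ± 19.8 CPM (n = 2) in the controls, a log2 fold change of -0.11 ± 0.22, and of -0.26 with the length trend removed. The 95% interval of the first, -0.60 to 0.38, leaves out a doubling and a halving. CCND3 (ENSG00000112576, chromosome 6, 41934933 to 42050357, minus strand) read 102, 70.4 and 96.3 CPM against 63.3 and 112 CPM. Both its highest and its lowest WTC11 library were controls, and its log2 fold change was 0.03 ± 0.29, or 0.11 without the trend. Within the D-type family, CCND2 made up 41.9% to 59.5% of the summed CPM per kilobase in each library, CCND3 21.7% to 39.2% and CCND1 14.0% to 24.4%. The share of CCND2 was 53.6 ± 5.80% (n = 3) in the KIF3B knockouts and 48.8 ± 2.47% (n = 2) in their controls, a difference smaller than the SD of the knockouts. With the union of exons as length, the mean shares over all libraries were 60.1% (CCND2), 23.2% (CCND1) and 16.7% (CCND3). CCND1 then passed CCND3.

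The E-type cyclins, which activate CDK2 at the entry into S phase, were uneven in level. CCNE1 (ENSG00000105173, chromosome 19, 29811898 to 29824308, plus strand) held 166, 109 and 152 CPM in the KIF3B knockouts and 129 and 159 CPM in the controls. Knockouts 1 and 2 were the highest and the lowest of the 5, so the groups overlapped fully. Its log2 fold change came to -0.01 ± 0.21 (edgeR adjusted p = 0.980; 95% interval -0.48 to 0.46), and turned to 0.14 with the length trend removed. CCNE2 (ENSG00000175305, on chromosome 8) had 21 to 45 counts per library, and its log2 fold change of -0.36 ± 0.50 had an interval of -1.48 to 0.76, too wide at this depth to tell a halving from no difference. Without the length trend it was -0.43. CCNE1 made up 90.1% to 96.2% of the summed E-type CPM per kilobase in every library. Counts of CCNE2 carry a further limit, since 1629 of its exon bases overlap INTS8 on the opposite strand, a gene with 266 to 494 counts, and whether the counting used strand is not given in the sources used here.

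Of the G1 kinases, CDK6 (ENSG00000105810, chromosome 7, 92604921 to 92836594, minus strand) gave 20.6, 102 and 71.5 CPM in KIF3B knockouts 1, 2 and 3, from 54, 234 and 199 counts. WTC11 controls gave 18.8 and 13.1 CPM, from 41 and 29 counts. Knockouts 2 and 3 stood well above every other library of the series, and knockout 1, although above both WTC11 controls, lay below WA09 control 1 at 24.7 CPM. The means were 64.6 ± 41.0 CPM (n = 3) and 16 ± 4.0 CPM (n = 2), a 4.03-fold difference (log2 2.01 ± 0.60; 95% interval 0.67 to 3.35). This did not pass edgeR (adjusted p = 0.181) and passed DESeq2 (2.03 ± 0.55, adjusted p = 0.0290). Knockouts 1 and 2 share guide RNA 1. Guide 1 gave 20.6 and 102 CPM beside its control at 18.8 CPM, and guide 2 gave 71.5 CPM beside 13.1 CPM. The part of the guide in this level was not tested. The log2 fold change was 1.52 without knockout 2 and 2.43 without knockout 1, and it was 1.66 with the length trend removed. The 344 tested genes with a transcript at least as long as that of CDK6 had a median of 0.39.

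CDK4 (ENSG00000135446, chromosome 12, 57747727 to 57756013, minus strand), which shares the D-type cyclins with CDK6, read 177, 187 and 180 CPM in the KIF3B knockouts against 204 and 206 CPM. Every knockout lay below both controls, by a small step. This was a log2 fold change of -0.18 ± 0.11 (edgeR adjusted p = 0.444), and -0.02 with the length trend removed. Raw counts of CDK4 moved little, from 424 to 501 over all 8 libraries while totals differed more, and 1369 of its exon bases overlap TSPAN31 (52 to 126 counts) on the other strand. As a share of the summed CPM per kilobase of both kinases, CDK6 was 2.04%, 8.87% and 6.63% in KIF3B knockouts 1, 2 and 3. WTC11 controls had 1.62% and 1.13%. The Wilson binomial intervals at 95%, for counting error alone, were 7.66% to 10.2% in knockout 2 and 5.68% to 7.72% in knockout 3. They lay beyond those of the controls (1.18% to 2.21% and 0.778% to 1.63%), whereas that of knockout 1 (1.55% to 2.69%) overlapped both. CDK4 thus remained the larger of the pair in all 8 libraries, by a margin that depends on the length used. With the union of exons as length, CDK6 was 12.3% and 9.31% in knockouts 2 and 3. As a share of the counts of both kinases, without a length, it was 35.2% and 28.4% there.

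**Figure D2:**
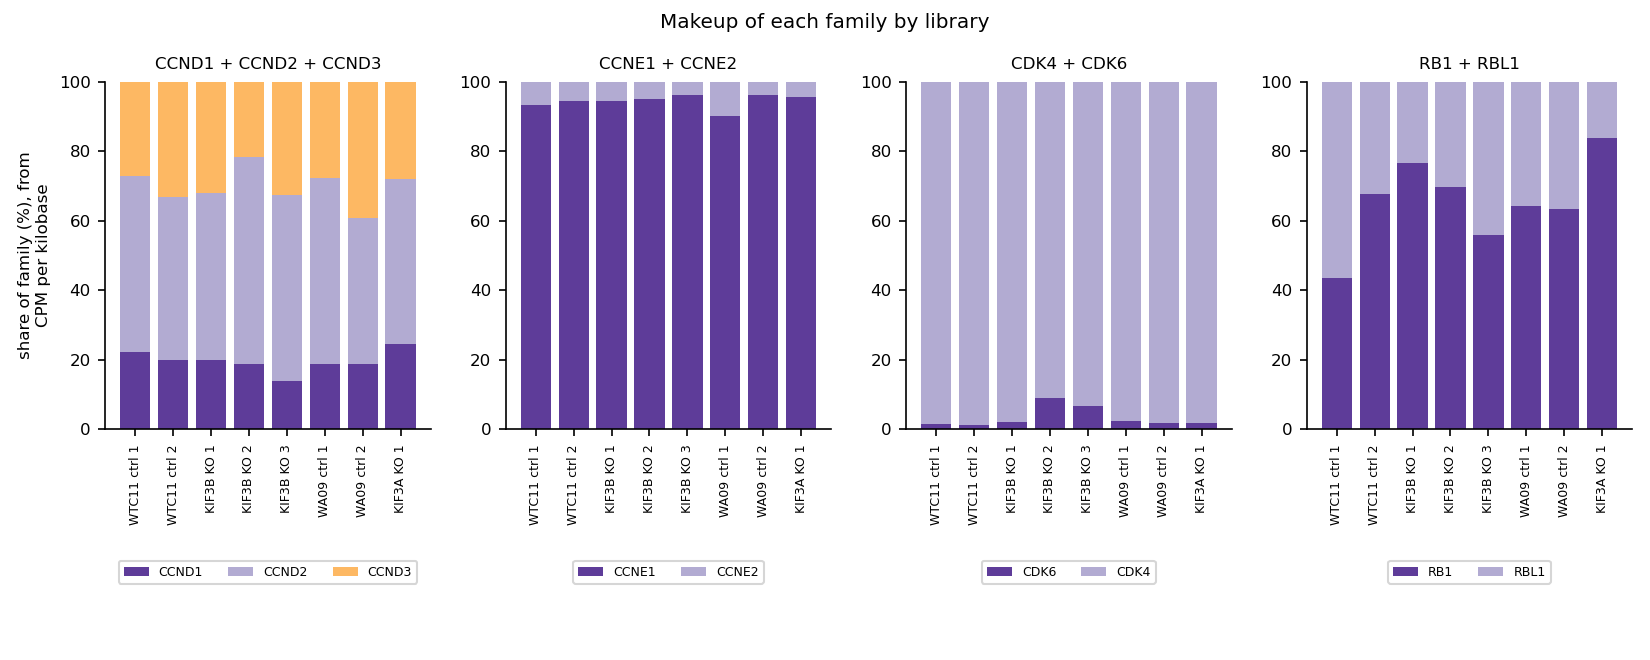
Makeup of each family by library, in percent of summed CPM per kilobase: D-type cyclins, E-type cyclins, CDK4 with CDK6, and RB1 with RBL1, with 1 stacked bar per library. CDK6 takes 8.87% and 6.63% of its pair in KIF3B knockouts 2 and 3 and at most 2.50% in the other 6 libraries.

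CDK2 (ENSG00000123374, chromosome 12, 55966769 to 55972784, plus strand), the partner of the E-type cyclins, held 36.7, 31.7 and 38.8 CPM in the KIF3B knockouts and 40.3 and 46.7 CPM in their controls. The groups were apart narrowly (38.8 against 40.3 CPM), from 73 to 108 counts per library. On the log2 scale the difference was -0.28 ± 0.33 (edgeR adjusted p = 0.710; 95% interval -1.02 to 0.46), and -0.24 without the length trend.

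Of the pocket proteins, RB1 (ENSG00000139687, chromosome 13, 48303726 to 48599436, plus strand) was the member with the most even difference. KIF3B knockouts held 70.3, 58.6 and 56.1 CPM, from 184, 135 and 156 counts, and WTC11 controls 29.3 and 29.5 CPM, from 64 and 65 counts. The lowest knockout lay well above the higher control, with either guide: 70.3 and 58.6 against 29.3 CPM for guide 1 and 56.1 against 29.5 CPM for guide 2. Means of 61.7 ± 7.57 CPM (n = 3) and 29.4 ± 0.0867 CPM (n = 2) gave a 2.10-fold difference (log2 1.07 ± 0.29; 95% interval 0.42 to 1.71). The SD of the controls comes from 2 libraries with 64 and 65 counts and is a poor guide to their spread. The difference passed neither edgeR (adjusted p = 0.175) nor DESeq2 (adjusted p = 0.0972). Leaving out each library in turn gave 0.96 to 1.13, and removing the length trend 0.88. The 4474 genes with a transcript at least as long as that of RB1 had a median of 0.26.

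RBL1 (ENSG00000080839, chromosome 20, 36996349 to 37095995, minus strand), which encodes the related pocket protein p107 and is itself an E2F target, varied within groups. It read 25.6, 30.4 and 52.5 CPM in the KIF3B knockouts and 45.4 and 16.8 CPM in the controls, which lay at nearly opposite ends. Its log2 fold change of 0.22 ± 0.48 had an edgeR adjusted p of 0.851 and turned to -0.02 with the length trend removed, and leaving out single libraries moved it from -0.32 to 1.11. RB1 made up 76.5%, 69.6% and 55.9% of the pair per kilobase in knockouts 1, 2 and 3 and 43.4% and 67.6% in the controls, so the shares overlapped.

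**Figure D3:**
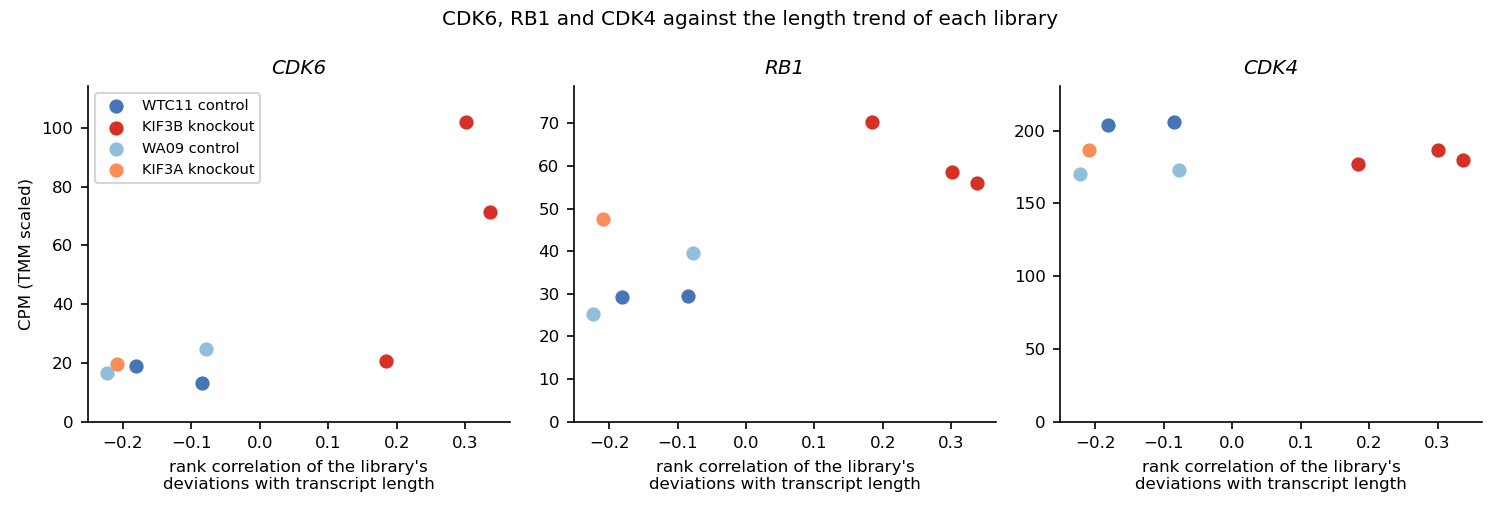
CPM of CDK6, RB1 and CDK4 in each library against that library's rank correlation with transcript length. The 3 KIF3B knockouts lie at 0.184 to 0.337 on the horizontal axis and the other 5 libraries at -0.223 to -0.078; knockout 1, with the smallest of the 3 values, has the lowest CDK6 and the highest RB1 of the knockouts.

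The loss of KIF3A in WA09 cells rests on 1 library, which was assumed to vary like the others. No member passed edgeR (0 of 10; 0.0% of all genes), 0 had an unadjusted p under 0.05 where 3.71% of genes did, and DESeq2 called 0 members and 0.00703% of genes. A single library lay above both controls for 33.8% of genes and below both for 33.0%, and for 4 and 1 of the members. RB1 stood at 47.6 CPM against 39.6 and 25.2 CPM, a log2 fold change of 0.56 ± 0.37 with an interval of -0.27 to 1.38. CDK6 stood at 19.8 CPM, between its controls at 24.7 and 16.7 CPM (-0.06 ± 0.78). Neither value excludes a doubling. RBL1 was the member below both controls, at 11 CPM from 25 counts against 26.3 and 17.4 CPM (-0.98 ± 0.71, edgeR adjusted p = 1.0). RB1 was therefore 83.7% of the pocket-protein pair in this library, and 64.1% and 63.2% in its controls. CCND1 was 102 CPM against 77.3 and 79.9 CPM (0.38 ± 0.30), CCNE1 136 CPM against 98.1 and 132 CPM (0.24 ± 0.28), and CDK4 187 CPM against 173 and 170 CPM (0.13 ± 0.15). CCND2, at 300 CPM, lay between controls of 333 and 266 CPM (0.00 ± 0.22), as did CCND3, CCNE2 and CDK2. Removing the length trend left RB1 at 0.61, CCND1 at 0.43, CDK6 at -0.09 and RBL1 at -0.95.

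The difference between both effects was tested as the KIF3A effect minus the KIF3B effect. It passed for 0 of 10 members (0.0% of all genes by edgeR, 0.12% by DESeq2), and 0 members had an unadjusted p under 0.05, beside 9.3% of genes. For CDK6 the difference was -2.07 ± 0.99 (edgeR adjusted p = 0.553; 95% interval -4.29 to 0.15). For RB1 it was -0.51 ± 0.47, and for RBL1 -1.20 ± 0.86. With the length trend removed these were -1.75, -0.26 and -0.93. Knocked-out gene and cell line cannot be told apart in this contrast.

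With both lines in 1 fit and line as a term, knockout against control gave 0 of 10 members past edgeR (0.0% of 13238 genes; 8.59% at an unadjusted p under 0.05, among them 2 members; DESeq2 called 0 members and 0.264% of genes). RB1 was at 0.89 ± 0.24 (edgeR adjusted p = 0.528, 95% interval 0.37 to 1.41) and was higher than every control of its own line in 4 of 4 knockout libraries. Of all genes, 16.5% were higher in this way in the KIF3B and 33.8% in the KIF3A comparison. The share that was so in both was not counted. CDK6 was at 1.33 ± 0.57 (adjusted p = 0.565). With the length trend removed they were at 0.79 and 1.08. This fit shares its libraries with the comparisons above and is no separate evidence.

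Controls of both lines were set side by side. The WTC11 controls belong to KIF3B guides and the WA09 controls to a KIF3A guide, so line and guide cannot be told apart here. No member passed edgeR (0 of 10, against 0.0281% of genes, with 15.0% at an unadjusted p under 0.05 and 0 members among them; DESeq2 called 0 members and 1.33% of genes). CCND1 and CDK4 lay higher in both WTC11 controls, and no member lay lower in both. Of all genes 23.6% lay higher in this way and another 23.6% lower. CDK4 was 205 ± 1.25 CPM (n = 2) in WTC11 and 171 ± 1.73 CPM (n = 2) in WA09, a log2 difference of 0.26 ± 0.12 (adjusted p = 0.354). CCND1 was 107 ± 19.8 CPM against 78.6 ± 1.86 CPM (0.44 ± 0.24, adjusted p = 0.436). CDK6 (-0.37 ± 0.64) and RB1 (-0.14 ± 0.31) had errors that exceed the differences, and the interval of CDK6, -1.80 to 1.06, is too wide to tell a doubling or a halving from no difference. With the length trend removed CDK4 was at 0.28, CCND1 at 0.49, CDK6 at -0.47 and RB1 at -0.08.

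**Figure D4:**
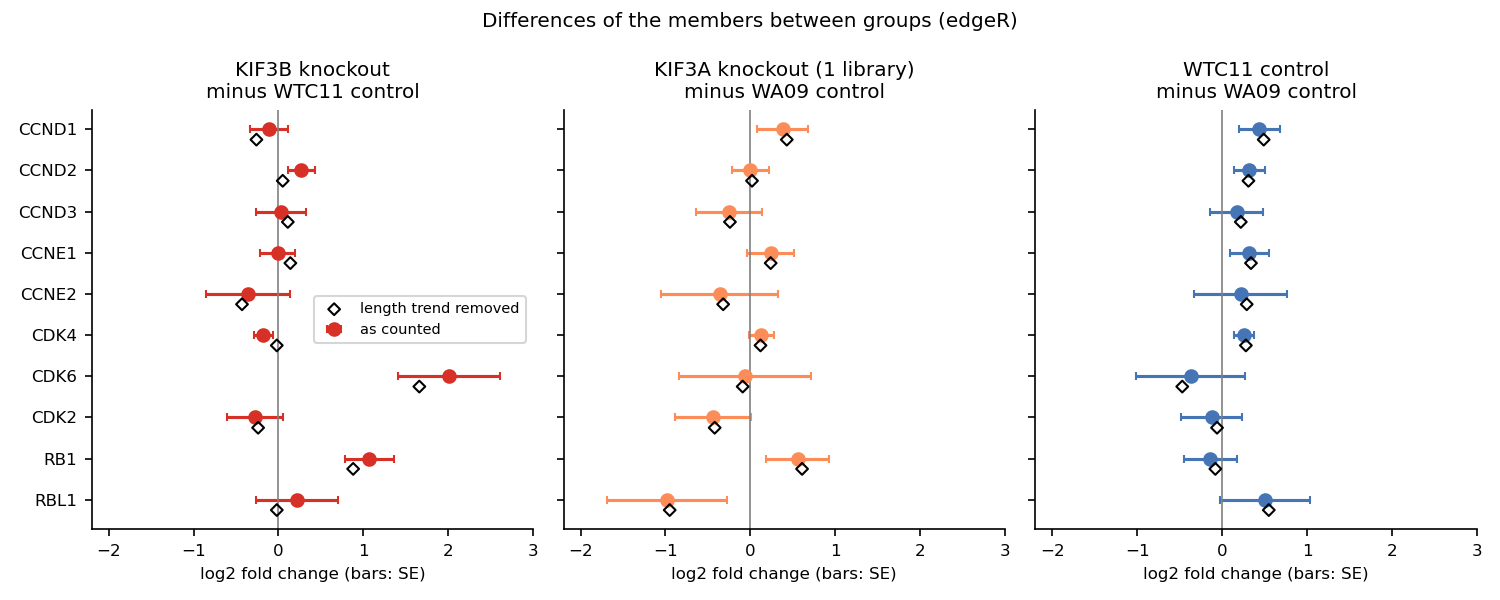
Log2 fold changes of the members with SE bars, for the KIF3B knockouts, the lone KIF3A knockout and the WTC11 controls against the WA09 controls, with open diamonds where the trend with transcript length was removed. CDK6 (2.01) and RB1 (1.07) lie apart from 0 in the KIF3B panel, and no member passed the adjusted edgeR test.

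Other genes of the pathway were read from lists, in none of which a gene passed edgeR in the KIF3B or the KIF3A comparison. Of 7 INK4 and CIP/KIP inhibitors, 4 were abundant enough to test, with a median of -0.36 in the KIF3B comparison. CDKN2C had 0 counts in all 8 libraries, and CDKN2A and CDKN2B at most 4 and 1. CDKN1A, the p21 inhibitor, stood at 57.1 ± 50.0 CPM (n = 3) against 52.6 ± 20.5 CPM (n = 2), and CDKN1B, the p27 inhibitor, at 11.1 ± 0.629 against 16 ± 7.86 CPM. Both overlapped between groups. The 10 E2F and DP factors had a median of 0.17, with TFDP1 at -0.02 ± 0.13 and E2F4 at 0.05 ± 0.13. A further list joined RBL2 and MYBL2 to the core of DREAM, a repressor assembly built on pocket proteins. Its 6 tested genes of 7 had a median of -0.02. Among 6 genes that activate or restrain the kinases by phosphorylation the median was -0.24, and among 12 genes of cyclin and p27 turnover 0.14. In these, WEE1, which adds the inhibitory phosphate, was at 0.37 ± 0.25, and CDC25A, which removes it, at 0.28 ± 0.18. The most abundant turnover genes went opposite ways, with the SCF scaffold CUL1 at 0.34 ± 0.15 and SKP1 at -0.24 ± 0.13. The 20 S phase genes driven by E2F, downstream of RB1, had a median of 0.09, with the helicase genes MCM3 at 0.11 ± 0.11 and MCM4 at 0.08 ± 0.13, and the 11 G2 and mitotic genes -0.11, with CCNB1 at -0.13 ± 0.11. All 20 S phase genes were tested, and 2 were higher and 2 lower at an unadjusted p under 0.05, a share near the 16.6% of all genes. Turnover genes counted 2 higher and 1 lower, the genes that activate or restrain the kinases 2 lower, and G2 and mitotic genes 1 each way. In the KIF3A comparison the medians of the 7 lists ran from -0.10 to 0.15.

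The genes whose log2 CPM followed CDK6 most closely over the 8 libraries were CTNND1, the p120 catenin of cell junctions (Pearson r = 0.974), ATP9B (0.956), MTMR1 (0.956), GPR107 (0.952) and MYH9, the heavy chain of non-muscle myosin (0.950). They were ranked among the 8760 genes that averaged 20 CPM or more, and 37 had an r above 0.9. CTNND1 read 427 and 358 CPM in KIF3B knockouts 2 and 3, 250 CPM in knockout 1 and 183 to 251 CPM in the other 5 libraries. These libraries share groups and the length trend, so the likeness is given as a description.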

How the data were processed

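The authors deposited raw read counts for each gene as whole numbers. Per the submitters' processing notes, STAR was used with hg38; the sources used here do not give the counter, annotation or strand setting. Counts were tested with edgeR 4.0.16 (TMM, filterByExpr, robust quasi-likelihood F test) in R 4.3.3, with Benjamini-Hochberg adjustment over all genes tested and a threshold of 0.05, in 1 fit with group means (14216 genes) and 1 with line as a term (13238 genes). Every count was kept as deposited. CPM used TMM library sizes; lengths and positions came from GENCODE 29 on GRCh38 (58039 genes matched). The length trend was removed per library by a lowess offset. Alternatives were DESeq2 1.42.0, other size factors, no filter, detected genes as a covariate, WTC11 libraries alone, a guide block and leaving out each library. Scripts were tested on simulated data. Members and lists were chosen with earlier results of these data known. Of each list the 2 most abundant genes tested could be named, and the 5 genes most like CDK6, the member with the widest range; other named genes were chosen after their values were seen.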

Additional observations from a re-analysis of the deposited data

How the results depend on the processing

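Depth limited CCNE2 (21 to 45 counts) most, and 1 KIF3A knockout library limits every value of that comparison. By edgeR, 0 members were called in any comparison with any library left out. Without a filter on low counts 1 member was called for KIF3B, CDK6 (2.02, edgeR adjusted p = 0.000188), where 676 of 26388 genes were. In both lines together 1 was called, CDK6 (1.33, edgeR adjusted p = 0.0357), where 154 of 26388 genes were. DESeq2 called 1 for KIF3B, CDK6 (2.03), and 209 of 14216 genes. AMBRA1 (1.33), CCNH (-0.83), CCNF (0.63) and ORC1 (0.74) also passed without the filter. Of 26388 genes without the filter, 676 were called for KIF3B, 2 for KIF3A and 160 for the difference of effects. For the lines 525 were called, and for both lines together 154. In the same order DESeq2 called 209, 1, 17, 189 and 35, of 14216 genes or, for both lines together, 13238. The main edgeR fits called 0, 0, 0, 4 and 0. For the lines, DESeq2-type size factors in edgeR and detected genes as a covariate each gave 0. Leaving out a library gave 0 to 5 genes for KIF3B (5 without WTC11 control 2), 0 to 1 for KIF3A, for the difference and for the lines, and 0 for both lines together.

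Signs turned under some alternatives, and the cause was not tested. With detected genes as a covariate the KIF3B values were 0.01 (CCND1), -0.72 (CCND3), -0.07 (E2F4), -0.13 (RBBP4), -0.08 (MCM3), -0.18 (MCM4) and 0.01 (TOP2A), the KIF3A values -0.03 (CCND2) and 0.06 (CCND3), the differences of effects 0.78 (CCND3), 0.26 (CCNE2) and 0.40 (CDK2), the line difference 0.38 (CDK2) and both lines together 0.01 (CDK4). With the length trend removed they were 0.14 (CCNE1), -0.02 (RBL1), 0.02 (TFDP1), -0.20 (RBBP4), -0.06 (MCM4) and 0.00 (CCNB1) for KIF3B, 0.11 (CCNE2) for the difference, and -0.01 (CCND1) and 0.03 (CDK4) for both lines together.

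Leaving out single libraries turned the sign within these ranges, also of values not near 0, such as -0.52 (CDKN1B for KIF3B), -0.44 (CDK2 for KIF3A) and 0.51 (RBL1 for the lines). For KIF3B they were -0.29 to 0.10 (CCND1), -0.33 to 0.50 (CCND3), -0.16 to 0.15 (CCNE1), -0.32 to 1.11 (RBL1), -0.88 to 0.58 (CDKN1A), -0.95 to 0.10 (CDKN1B), -0.11 to 0.06 (TFDP1), -0.01 to 0.24 (MCM3), -0.28 to 0.04 (CCNB1) and -0.10 to 0.01 (TOP2A). For KIF3A they were -0.15 to 0.17 (CCND2), -0.49 to 0.04 (CCND3), -0.80 to 0.25 (CCNE2), -0.87 to 0.17 (CDK2) and -0.32 to 0.25 (CDK6). For the difference they were -0.75 to 0.08 (CCND3), -0.43 to 0.60 (CCNE2) and -0.59 to 0.45 (CDK2), and for the lines -0.31 to 0.52 (CCND3), -0.21 to 0.82 (CCNE2), -0.56 to 0.49 (CDK2), -0.43 to 0.21 (RB1) and -0.38 to 1.05 (RBL1). For both lines together they were -0.11 to 0.23 (CCND1), -0.28 to 0.14 (CCND3), -0.02 to 0.19 (CCNE1) and -0.61 to 0.21 (RBL1), with CDK6 from 0.91 to 2.01.

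Libraries of WTC11 share guide numbers. Deviations of control 1 from its group mean correlated with those of knockouts 1 and 2, of its guide, at 0.104 and -0.108. With knockout 3, of the other guide, the value was 0.017. Deviations from the mean of so few libraries depend on each other, so these values cannot decide whether the number pairs the samples. With guide number as a replicate block CDK6 was at 2.01 (edgeR adjusted p = 0.216), RB1 at 1.05 (0.186) and CCNE1 at 0.03, with 0 members and 0 genes called.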

Other observations

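Some genes that act on the G1 kinases and cyclins had groups that did not overlap in the KIF3B comparison, and none passed edgeR after adjustment. They were chosen after their values were seen. An unadjusted p under 0.05 was reached by 3 of 12 turnover genes and by 2 of 6 genes that activate or restrain the kinases. Of all genes 16.6% reached it. The groups did not overlap for 16.5% of all genes upward and 18.0% downward. AMBRA1, which directs D-type cyclins to degradation, averaged 53.1 ± 9.62 CPM in the knockouts (SD, n = 3) and 21.2 ± 9.52 CPM in the WTC11 controls (n = 2), a log2 fold change of 1.32 ± 0.35 (edgeR adjusted p = 0.175) and of 1.10 with the length trend removed. WA09 controls held 44.5 ± 6.96 CPM, and the KIF3A knockout 35.3 CPM, so the WTC11 controls were the lowest of the 4 groups. RBX1, the RING subunit of cullin ligases, was at 144 ± 12.4 against 200 ± 6.44 CPM (-0.47 ± 0.12), and at -0.27 with the length trend removed.

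CCNH and MNAT1, partners of CDK7 in the complex that activates cyclin-dependent kinases, were both lower in the KIF3B knockouts. CCNH read 83.8 ± 19.4 CPM (n = 3) against 150 ± 51.2 CPM (n = 2), and MNAT1 57.4 ± 16.2 against 95.3 ± 2.70 CPM. Their log2 fold changes were -0.84 ± 0.24 and -0.73 ± 0.24 (edgeR adjusted p = 0.175 and 0.194), and -0.76 and -0.69 with the length trend removed. CCNH controls differed (187 and 114 CPM), and its value was -0.45 without WTC11 control 1. CDK7 itself was at -0.31 and moved to -0.01 when the trend was removed. In the KIF3A knockout CCNH was at -0.05 ± 0.32 and MNAT1 at 0.02 ± 0.31.

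Genes read in S phase and mitosis did not lie on 1 side in the KIF3B comparison. ORC1 (0.73 ± 0.23), CDC6 (0.30 ± 0.11) and CCNF (0.62 ± 0.18) were higher, and PCNA (-0.36 ± 0.11), TK1 (-0.26 ± 0.11) and CDK1 (-0.40 ± 0.11) lower. Their groups did not overlap, and none passed edgeR after adjustment. They were chosen after their values were seen, as the genes of both lists with an unadjusted p under 0.05. MCM2, MCM7, RRM1 and RRM2 were also higher without overlap, and CDC45, CCNB2, AURKA and AURKB lower. Of all genes, 16.5% were higher in this way and 18.0% lower. With the length trend removed PCNA was at -0.04, TK1 at -0.01 and CDC6 at 0.11, while ORC1 was at 0.69, CCNF at 0.46 and CDK1 at -0.21. With the trend kept, CDC6 was at 0.19 without WTC11 control 1.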
